A study of Mus musculus with 9 samples.

Results

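The enzymes described here are 8 of the enzymes that build cholesterol from acetyl-CoA: Hmgcs1, Mvd, Idi1, Fdps, Fdft1, Sqle, Cyp51 and Dhcr7. They were chosen by symbol, and each symbol matched 1 of the 47729 gene identifiers that every library was counted on. The libraries were RNA sequencing of dissected midbrain from 180-day-old C57/Bl6 mice that all carried Pitx3-Cre/+ and Rosa-lox-stop-lox-Yfp, a reporter that is switched on by Cre. The genotypes differed in the floxed allele of Dot1l, the methyltransferase of lysine 79 of histone H3: Dot1l(+/+) controls had no floxed allele, Dot1l(fl/+) mice carried 1 and Dot1l(fl/fl) mice carried 2. There were 3 libraries per genotype, each a pool of the tissue of 3 mice, so replicates are pools rather than animals. The study's methods describe matched sets of the genotypes, taken from the same nest, but the labels do not say whether the replicate numbers mark these sets, and the tests below treat the pools as unmatched. The total counts ran from 16422135 to 28403218 per library.

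Cre is driven from the Pitx3 locus and therefore recombines in dopaminergic neurons, whereas the dissected tissue also holds the glia and the other neurons of the midbrain. In such bulk tissue, fewer cells of a type and less RNA per cell cannot be told apart. The 12 markers of dopaminergic neurons were all detected, and their summed level was 753 to 842 CPM (counts scaled to library size and composition) in Dot1l(+/+), 607 to 755 in Dot1l(fl/+) and 594 to 625 in the pools of Dot1l(fl/fl). The markers of neurons, oligodendrocytes, astrocytes, microglia and endothelial cells had no member at 0 either. Dot1l itself lay between 60.6 and 85.2 CPM over the 9 libraries, and its log2 difference from controls was -0.19 ± 0.09 (SE) in Dot1l(fl/+) and, for Dot1l(fl/fl), -0.07 ± 0.09, with adjusted p-values of 0.620 and 0.999 (edgeR). Single pools moved these values: when replicate 2 of Dot1l(fl/+) was left out the first became -0.063, when replicate 1 was left out it became -0.29, and the second became -0.016 when replicate 2 of Dot1l(fl/fl) was left out. The counts are taken over the whole gene, including exons outside the floxed part, so this level does not measure the loss of the protein.

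Cholesterol in the brain is made locally, since lipoprotein cholesterol of the blood does not pass the blood-brain barrier. Oligodendrocytes use it for myelin, astrocytes export it bound to ApoE, and neurons make part of their own supply. The pathway condenses acetyl-CoA units to HMG-CoA and mevalonate, turns mevalonate into the isoprenoid units isopentenyl and farnesyl diphosphate, joins farnesyl units to squalene, closes squalene to lanosterol and trims lanosterol to cholesterol. When the sterol content of the endoplasmic reticulum falls, SCAP escorts the transcription factor SREBP2 to the Golgi, where it is cut free, and it then binds sterol regulatory elements in the promoters of nearly all genes of the pathway, together with NF-Y and Sp1.

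The bases before the start site are shown for Hmgcs1, Mvd and Cyp51, whose levels followed each other most closely between pools as described below, and for Dhcr7, which followed the others least, and whether the motifs in them have a part in this was not tested. Each stretch is the 250 bases upstream of a RefSeq start in GRCm38.p6, 5′ to 3′ on the strand of the gene. Capitals mark the letters TCACNCCAC (a sterol regulatory element) and CCAAT or its complement ATTGG (the NF-Y box).
Hmgcs1, chr13:119690101-119690350, plus strand: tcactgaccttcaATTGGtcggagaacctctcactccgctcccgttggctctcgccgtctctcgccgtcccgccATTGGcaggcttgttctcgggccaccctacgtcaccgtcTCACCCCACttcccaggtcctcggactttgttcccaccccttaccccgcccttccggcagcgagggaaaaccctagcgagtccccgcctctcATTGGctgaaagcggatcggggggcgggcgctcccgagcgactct
Mvd, chr8:122443423-122443672, minus strand: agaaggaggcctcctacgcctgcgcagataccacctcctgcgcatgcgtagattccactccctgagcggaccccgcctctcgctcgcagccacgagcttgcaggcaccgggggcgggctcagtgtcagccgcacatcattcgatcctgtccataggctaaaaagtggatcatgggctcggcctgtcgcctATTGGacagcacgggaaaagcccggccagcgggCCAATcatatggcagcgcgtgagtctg
Cyp51, chr5:4104698-4104947, minus strand: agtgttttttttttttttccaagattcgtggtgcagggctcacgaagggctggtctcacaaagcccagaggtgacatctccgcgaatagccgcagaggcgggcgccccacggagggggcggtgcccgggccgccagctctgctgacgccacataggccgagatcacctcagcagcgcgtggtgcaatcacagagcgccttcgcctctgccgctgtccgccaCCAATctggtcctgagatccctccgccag
Dhcr7, chr7:143829964-143830213, plus strand: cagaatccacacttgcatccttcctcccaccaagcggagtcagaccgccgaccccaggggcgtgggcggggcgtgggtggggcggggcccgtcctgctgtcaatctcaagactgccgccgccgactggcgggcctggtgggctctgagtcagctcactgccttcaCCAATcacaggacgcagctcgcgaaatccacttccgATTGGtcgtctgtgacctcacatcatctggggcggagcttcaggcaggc

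The table of promoters held 7 windows of 5 members, 3 of them of Dhcr7, and none for Fdps, Fdft1 and Sqle. On either strand of the windows, which ran from 250 bases before to 50 bases after the start, TCACNCCAC was found in Hmgcs1, at position -137 from the start, and in no other member's window. It was present in 1.24% of all 32851 windows. CCAAT was found in 5 of the 7 windows, against 37.4% of all windows, and in at least 1 window of all 5 members, against 41.1% of all genes with a window. It lay within the 100 bases before the start in each of them, for example at -27 and -60 in Mvd, at -29 in Cyp51 and at -85 and -49 in the Dhcr7 window shown. GGGCGG, the letters of the GC box bound by Sp1, was found in 6 of the 7 windows, against 35.7% of all windows, and in the same 5 members, against 38.2% of all genes. The E-box CACGTG was found in another window of Dhcr7 and in 7.15% of all windows. The search used exact letters, and a window without a match says nothing of whether a factor binds there.

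The first enzymes of the pathway were at very different levels. Hmgcs1 (chr13:119690379-119708260, plus strand, GRCm38), which makes HMG-CoA, was the most abundant: it stood at 312, 272 and 294 CPM in the Dot1l(+/+) pools, 293, 300.4 and 261 in Dot1l(fl/+), and 296, 272 and 293 in the pools of Dot1l(fl/fl). The lowest pool was Dot1l(fl/+) replicate 3, and the 3 genotypes overlapped. Mvd (chr8:122433601-122443422, minus strand), which decarboxylates mevalonate diphosphate to isopentenyl diphosphate, had 21.4, 15.1 and 17.1 CPM in Dot1l(+/+), 17.6, 18.5 and 14.8 in Dot1l(fl/+), and 17.6, 15.1 and 16.6 in the pools of Dot1l(fl/fl). Its highest and its second lowest pools were both controls.

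Idi1 (chr13:8885501-8892451, plus strand), which isomerizes isopentenyl to dimethylallyl diphosphate, was counted at 4.45, 3.56 and 3.49 CPM in Dot1l(+/+), 3.56, 2.61 and 2.82 in Dot1l(fl/+), and 3.48, 2.81 and 4.67 in the pools of Dot1l(fl/fl). Those levels rest on 71 to 94 counts per library, for which counting alone gives a coefficient of variation of 11.0%, and the pools of Dot1l(fl/fl) held the highest value of all. Fdps (chr3:89093588-89101959, minus strand), which joins these units to farnesyl diphosphate, had 3.17, 2.79 and 3.61 CPM in Dot1l(+/+), 2.98, 3.46 and 3.13 in Dot1l(fl/+), and 3.64, 3.32 and 3.64 in the pools of Dot1l(fl/fl), from 60 to 98 counts per library. The genotypes overlapped for both genes.

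In the squalene part, Fdft1 (chr14:63145150-63179578, minus strand), the squalene synthase, had 58.2, 56.6 and 61.9 CPM in Dot1l(+/+), 61.0, 67.8 and 62.2 in Dot1l(fl/+), and 61.8, 54.4 and 55.2 in the pools of Dot1l(fl/fl). A single Dot1l(fl/fl) pool, replicate 1, reached into the range of Dot1l(fl/+). Sqle (chr15:59315077-59331192, plus strand), the epoxidase that opens the sterol branch, varied least: 82.1, 74.4 and 80.1 CPM in Dot1l(+/+), 81.8, 80.8 and 73.6 in Dot1l(fl/+), and 77.7, 71.5 and 80.4 in the pools of Dot1l(fl/fl), a coefficient of variation of 5.06% over the 9 pools.

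In the sterol part, Cyp51 (chr5:4081145-4104746, minus strand), which removes a methyl group from lanosterol, had 97.2, 77.2 and 83.3 CPM in Dot1l(+/+), 91.7, 98.2 and 77.4 in Dot1l(fl/+), and 89.97, 85.5 and 81.4 in the pools of Dot1l(fl/fl). The spread within Dot1l(+/+) and Dot1l(fl/+) covered the whole range of Dot1l(fl/fl). Dhcr7 (chr7:143823145-143848410, plus strand), which reduces 7-dehydrocholesterol to cholesterol, had 37.5, 38.0 and 32.9 CPM in Dot1l(+/+), 36.6, 34.9 and 32.8 in Dot1l(fl/+), and 36.2, 36.2 and 39.2 in the pools of Dot1l(fl/fl). The 8 enzymes summed to 527 to 616 CPM per library.

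**Figure D1:**
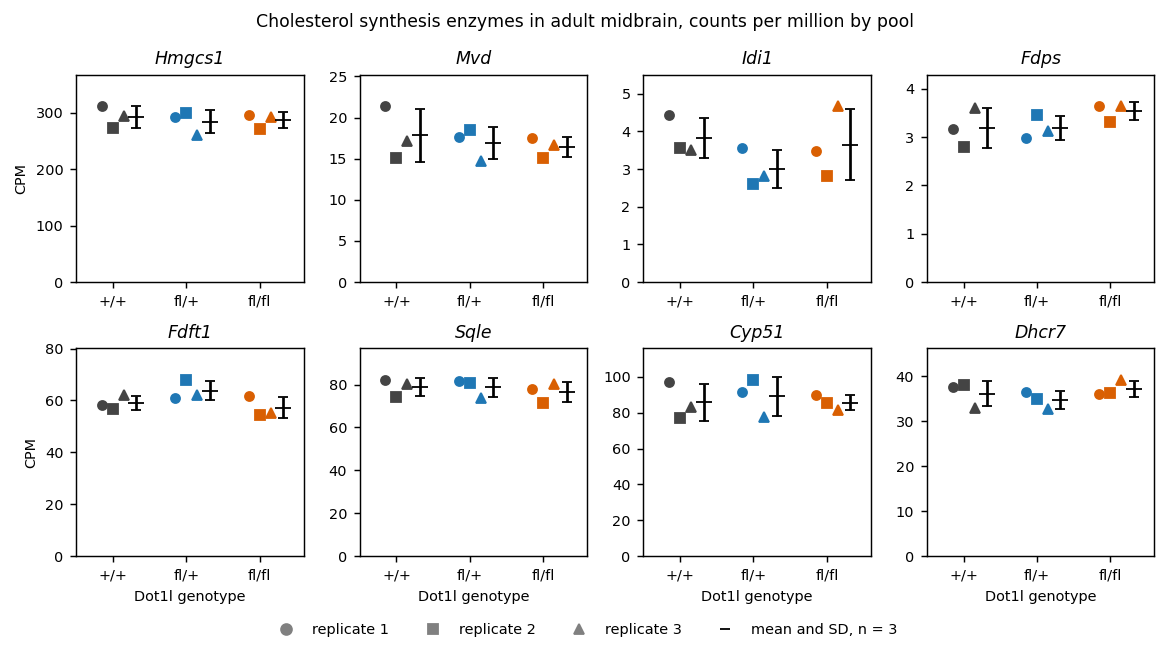
Level of each of the 8 enzymes in CPM (y axis, from 0) in every pool of the 3 genotypes (x axis). Points are pools with the marker giving the replicate number, and the black bars give the mean and SD of 3 pools. The genotypes overlap for every enzyme, and Idi1 has the widest spread relative to its mean (a coefficient of variation of 20.2% over the 9 pools).

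Levels of different genes were compared per kilobase of merged exons. On this scale Hmgcs1 led with 62.7 ± 3.56 CPM per kb (SD, n = 9 pools), above 96.8% of the tested genes, followed by Cyp51 with 19.7 ± 1.78. Fdft1 (14.2 ± 1.00) and Sqle (14.1 ± 0.712) came next and could not be ordered, since their ranges over the pools overlapped. Mvd had 9.18 ± 1.12, Dhcr7 6.20 ± 0.374, Idi1 0.997 ± 0.202 and Fdps 0.785 ± 0.0733, and of these neighbours only Idi1 and Fdps overlapped. Mvd, the enzyme before these steps, and Fdft1, the enzyme after them, were both counted far above Idi1 and Fdps.

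Idi1, Fdps and Fdft1 have processed pseudogenes, copies of their mRNA elsewhere in the genome, that held counts of their own. Stretches of 50 bases identical to Fdps occur in Gm3571, Gm5873 and Gm8163, and these held 3005, 772 and 10 counts over the 9 libraries, against 719 for Fdps. Gm13502, a copy of Idi1, held 1699 counts against 744 for Idi1, whereas the copy Gm35570 held 0. Gm6781, a copy of Fdft1, held 3214 counts against 13134 for Fdft1. In all, 15.96% of the joint counts were on Fdps, 30.5% on Idi1 and 80.3% on Fdft1. With the copies added, Fdps stood at 19.5 to 21.4 CPM, Idi1 at 8.81 to 13.8 and Fdft1 at 68.1 to 83.7. How reads that match a gene and its copy were assigned is not given in the sources used here, so the values of these 3 genes are uncertain and are given both ways below. Of Fdps, 26.7% of the exon bases also lie in exons of Gm43738, a protein-coding gene on the same strand with 0 counts. Whether this overlap lowers the counts of Fdps was not tested. The other overlaps are with genes on the opposite strand. Of Fdft1, 18.3% of the exon bases lie in exons of Ctsb, a gene with 120075 counts, and 3.76% of those of Cyp51 lie in Akap9. For Hmgcs1 it is 12.1% with Gm48342 and for Idi1 9.22% with Gm48574, neither of which was among the counted genes. The kit was directional, but the strand setting of the counting is not given in the sources used here.

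The comparison of Dot1l(fl/+) with Dot1l(+/+) asked whether loss of 1 functional allele changed the enzymes. No member of the 8 passed an adjusted p of 0.05 and none had an unadjusted p below 0.05, while 0% and 8.39% of the 17671 tested genes did. In 0 of the 8 did all Dot1l(fl/+) pools lie above or all lie below the controls, against 6.84% and 6.47% of all tested genes. The log2 fold changes lay between -0.35 and 0.11, with standard errors of 0.063 to 0.20, and their median was -0.022 beside -0.0034 over all tested genes. Idi1 had the lowest value, -0.35 ± 0.20 (3.83 ± 0.53 CPM in Dot1l(+/+) and 3.00 ± 0.499 in Dot1l(fl/+), SD, n = 3; adjusted p = 0.658, edgeR). Fdft1 had the highest, 0.11 ± 0.07 (adjusted p = 0.675, edgeR), which was 0.065 when replicate 2 of Dot1l(fl/+) was left out. For Hmgcs1 the 95% interval of the fold ran from 0.880 to 1.07, for Sqle from 0.909 to 1.097, for Dhcr7 from 0.861 to 1.07, for Fdft1 from 0.979 to 1.19 and for Cyp51 from 0.905 to 1.19. The intervals of Mvd (0.786 to 1.15), Fdps (0.797 to 1.25) and Idi1 (0.583 to 1.05) were wider. When replicate 1 of Dot1l(fl/+) was left out, the difference of Idi1 was -0.49 and Idi1 was the 1 member with an unadjusted p below 0.05, a threshold that 12.5% of all genes passed in that fit. It was -0.24 when replicate 1 of Dot1l(+/+) was left out and -0.26 when replicate 2 of Dot1l(fl/+) was.

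In Dot1l(fl/fl) against Dot1l(+/+), the comparison with both alleles floxed, again no member passed either threshold, beside 0% of all tested genes by the adjusted p and 3.93% by the unadjusted p. The pools of the 2 genotypes overlapped for all 8, while they were fully apart for 5.03% of all tested genes in the higher and 5.25% in the lower direction. The log2 fold changes lay between -0.12, for Mvd (± 0.13), and 0.14, for Fdps (± 0.15), and every member had an adjusted p of 0.999 (edgeR). The value of Fdps was 0.058 when replicate 2 of Dot1l(+/+) was left out and 0.24 when replicate 3 was. The median was -0.036, and 0.00090 over all tested genes. The 95% intervals of the fold were 0.888 to 1.08 for Hmgcs1, 0.882 to 1.07 for Sqle, 0.877 to 1.07 for Fdft1, 0.870 to 1.15 for Cyp51 and 0.920 to 1.15 for Dhcr7. They were wider for Mvd, 0.759 to 1.12, for Fdps, 0.878 to 1.39, and for Idi1, 0.699 to 1.27. The values cover all cells of the dissected tissue, so a change within dopaminergic neurons alone would appear diluted in them.

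In Dot1l(fl/fl) against Dot1l(fl/+), 0 members passed the adjusted threshold, beside 0% of all tested genes. An unadjusted p below 0.05 was reached by 1 member, Fdft1, and by 6.48% of all tested genes. Fdft1 was lower, and 2.87% of all tested genes were lower at this threshold. Fdft1 had 57.1 ± 4.06 CPM in Dot1l(fl/fl) and 63.7 ± 3.65 in Dot1l(fl/+) (SD, n = 3), a log2 fold change of -0.16 ± 0.07 with an adjusted p of 0.745 (edgeR), and the pools of both genotypes overlapped, as they did for the other 7 members (5.98% of all tested genes were fully above and 5.14% fully below). Without Dot1l(fl/+) replicate 2, without Dot1l(fl/fl) replicate 2 or without Dot1l(fl/fl) replicate 3, 0 members had an unadjusted p below 0.05, beside 9.79%, 5.55% and 5.29% of all genes in these fits. The other members lay between -0.057, for Cyp51, and 0.26, for Idi1, and the median of the 8 was -0.015, beside 0.0015 over all tested genes. The value of Idi1 became 0.067 when replicate 3 of Dot1l(fl/fl) was left out and 0.42 when replicate 2 was, and it became 0.40 or 0.17 when replicate 1 or 2 of Dot1l(fl/+) was. Dot1l(fl/+) pools enter both this comparison and the first, so the values of Fdft1 and Idi1 in them are not independent.

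With the counts of the processed pseudogenes added, Idi1 was at -0.27 ± 0.13 in Dot1l(fl/+) against Dot1l(+/+), at 0.065 ± 0.12 in Dot1l(fl/fl) against Dot1l(+/+), and at 0.34 ± 0.13 in Dot1l(fl/fl) against Dot1l(fl/+). Idi1 with its copies stood at 12.7, 10.4 and 12.3 CPM in Dot1l(+/+), 11.2, 9.29 and 8.81 in Dot1l(fl/+), and 13.8, 11.2 and 11.9 in the pools of Dot1l(fl/fl). Every Dot1l(fl/fl) pool was above every Dot1l(fl/+) pool, although the nearest were 11.19 and 11.16, beside 5.98% of all tested genes as deposited, and the adjusted p of this difference was 0.725 (edgeR). The fold change of Fdps moved to 0.063, 0.014 and -0.049 in the same order of comparisons, so that its first and last values turned in sign. Fdft1 stayed at 0.091, -0.050 and -0.14. Counted this way, 1 member had an unadjusted p below 0.05 in the first comparison, 0 in the second and 2 in the third, beside 8.41%, 3.93% and 6.49% of all tested genes, and the adjusted p-values were 0.587 or higher throughout.

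**Figure D2:**
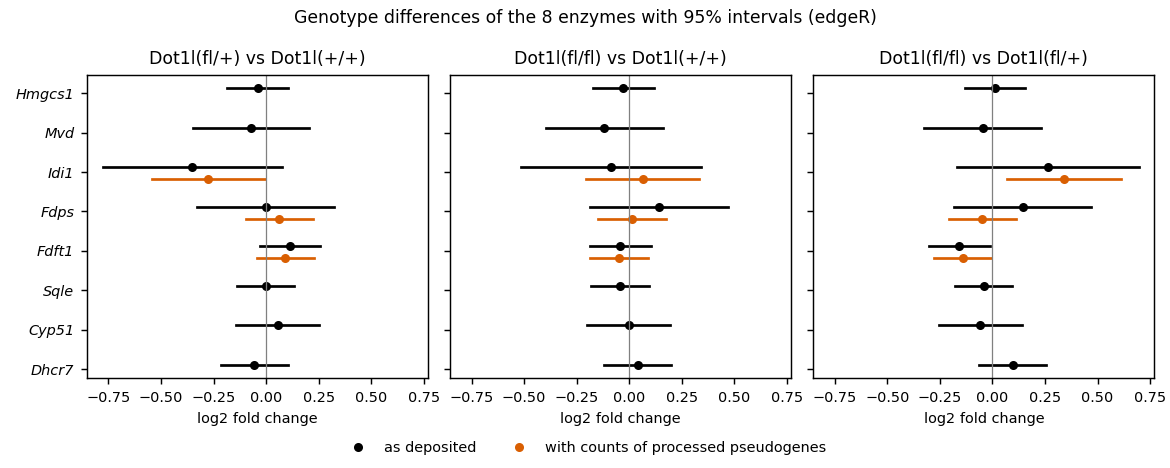
Log2 fold change (x axis) of each enzyme (y axis) in the 3 genotype comparisons. Points are edgeR estimates from 3 against 3 pools and lines their 95% intervals, in black for the counts as deposited and in orange with the counts of processed pseudogenes added. The black intervals of all enzymes include 0 except that of Fdft1 in Dot1l(fl/fl) against Dot1l(fl/+), which ends at -0.012.

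In most pools, most of the enzymes lay on the same side of their genotype mean. To follow this, each log2 CPM was set against the mean of its genotype. Dot1l(+/+) replicate 2, Dot1l(fl/+) replicate 3 and Dot1l(fl/fl) replicate 2 were low, with mean deviations of -0.10 in each. They had 1, 0 and 0 of the 8 enzymes above the genotype mean. By mean deviation Dot1l(+/+) replicate 1 was highest (0.11, 6 of 8 above), while Dot1l(fl/+) replicate 2 had the most enzymes above (7 of 8, mean 0.054). Dot1l(+/+) replicate 3 had 4 of 8 above and a mean of -0.0063. The share of all tested genes above the genotype mean in each pool was not determined, so these counts have no background beside them. In Hmgcs1 the deviations of the 3 low pools were -0.10, -0.12 and -0.078, in Sqle -0.083, -0.10 and -0.10, and in Mvd -0.23, -0.19 and -0.12. Dhcr7 did not follow in the controls: it was above the mean in Dot1l(+/+) replicate 2 by 0.074. The 3 low pools had 23249074, 25981276 and 25414332 counts in all, and the part of depth in their deviations was not tested.

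**Figure D3:**
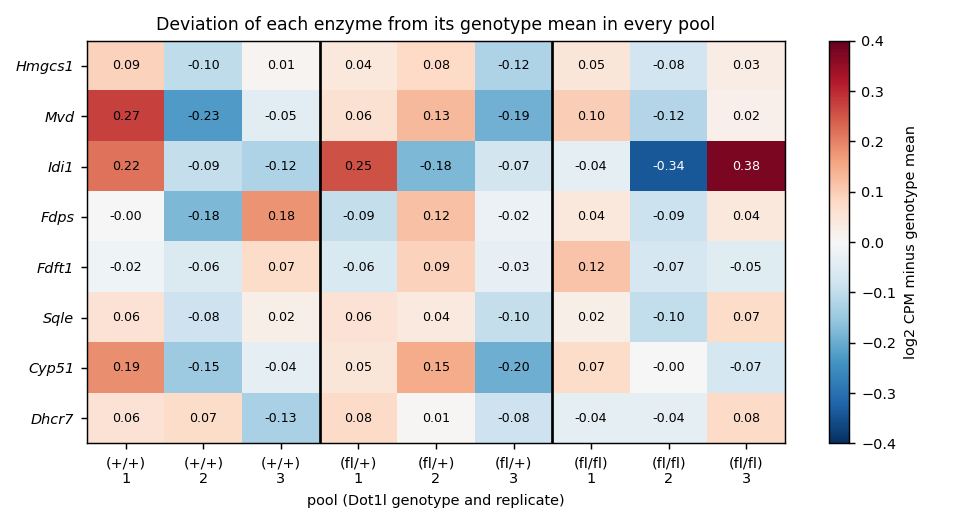
Deviation of log2 CPM from the genotype mean for each enzyme (rows) in each pool (columns, genotype and replicate), with red above and blue below the mean on a scale from -0.4 to 0.4. In Dot1l(fl/+) replicate 3 and Dot1l(fl/fl) replicate 2, 0 of the 8 enzymes lie above the mean.

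Over the 28 pairs of enzymes the median Pearson's r between pools, with genotype means removed, was 0.438, and 24 pairs were above 0. Between all pairs of tested genes the median was -0.0010, 49.9% were above 0 and 17.6% reached 0.438 or more. All r values share the same 9 libraries and their scaling, and the enzymes were picked with earlier results of these data known. The closest pair was Hmgcs1 and Mvd, with r = 0.950 and Spearman's rho = 0.983 (n = 9 pools; two-sided exact permutation within genotypes, p = 0.0046 for both, which is the smallest this design can give). Hmgcs1 also followed Sqle (r = 0.931, rho = 0.733, exact permutation p = 0.019 and 0.051) and Cyp51 (r = 0.866, rho = 0.933, exact permutation p = 0.032 and 0.023), which both act later in the pathway. Mvd followed Cyp51 (r = 0.915, rho = 0.917, exact permutation p = 0.019 and 0.023) and Sqle (r = 0.826, rho = 0.717, exact permutation p = 0.019 and 0.051). The remaining pair with an unadjusted p below 0.05 was Fdps and Fdft1 (r = 0.765, rho = 0.733, exact permutation p = 0.019 and 0.037).

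Without the 2 pools farthest from the median, r was 0.907 for Hmgcs1 and Mvd, 0.855 for Hmgcs1 and Sqle, 0.658 for Hmgcs1 and Cyp51, 0.855 for Mvd and Cyp51, 0.828 for Mvd and Sqle and 0.770 for Fdps and Fdft1. Adjusted over the 28 pairs by Benjamini-Hochberg, the lowest p of the exact permutation test was 0.104, so no single pair passed the correction. Cyp51 and Sqle, which both followed Hmgcs1, had r = 0.637 with each other. Dhcr7 followed the others least, with a mean r of 0.103, and it had r = -0.536 with Fdps and -0.484 with Fdft1.

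Adding the copies changed these values for 3 enzymes. The 10 pairs among Hmgcs1, Mvd, Sqle, Cyp51 and Dhcr7, which have no processed pseudogene with counts, had a median r of 0.731. The 18 pairs with Idi1, Fdps or Fdft1 had a median of 0.422 as deposited and of 0.598 with the copies added, and r was higher in 14 of them after the addition. Idi1 and Cyp51 went from 0.124 to 0.599, Idi1 and Fdft1 from -0.266 to 0.517 and Mvd and Fdps from 0.426 to 0.678, while Idi1 and Dhcr7 went from 0.619 to 0.0817. Over all 28 pairs the median became 0.601 and 26 were above 0. The pseudogene Gm6781, counted alone, had a mean r of 0.771 with the 5 enzymes without copies, whereas Fdft1, its parent, had 0.237. Gm13502 had 0.359 with the 5 and Idi1 0.471, although Gm13502 and Idi1 had r = -0.0513 with each other, and Gm5873 had -0.654 with its parent Fdps.

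**Figure D4:**
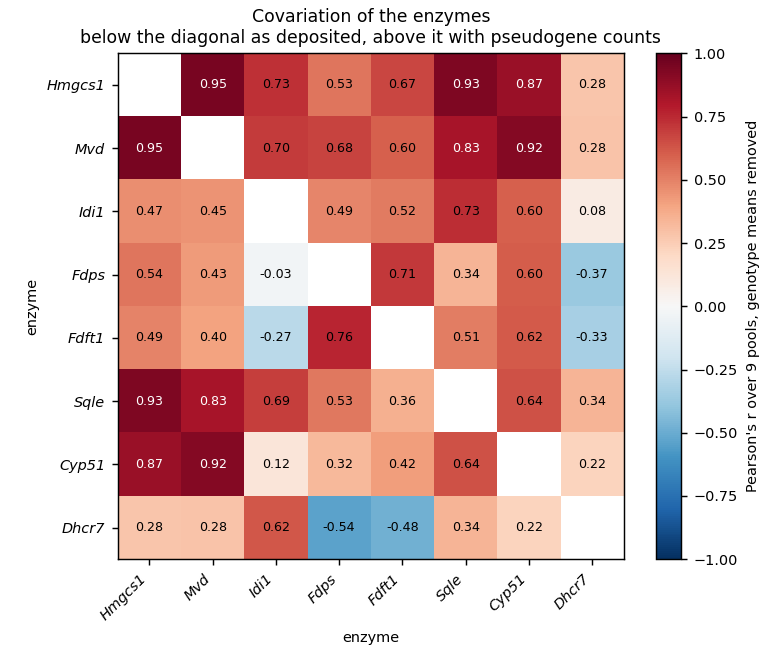
Pearson's r between enzymes over the 9 pools with genotype means removed (red above 0, blue below), below the diagonal for the counts as deposited and above it with the counts of processed pseudogenes added to Idi1, Fdps and Fdft1. Hmgcs1, Mvd, Sqle and Cyp51 have r from 0.637 to 0.950 with each other, and Dhcr7 has the lowest values.

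The genes with the pattern most like the enzymes were found by the mean r with the 8 over the 9 pools. Outside the members, the 5 highest of 17671 tested genes were Orc6 (0.678), Cpeb1os1 (0.677), Fbxo36 (0.676), Nup54 (0.673) and Rps12 (0.672). Orc6 is a subunit of the origin recognition complex, Nup54 a nuclear pore protein and Rps12 a ribosomal protein. Cpeb1os1, Fbxo36 and Rps12 had mean levels of only 3.16, 1.95 and 2.01 CPM. These genes are extremes of a wide distribution: the mean r ran from -0.674 to 0.678 over all tested genes. Hmgcs1 ranked 18th by its mean r with the other members (0.646) and Sqle had 0.616, Mvd 0.607 and Cyp51 0.501. The remaining members were lower: Idi1 had 0.294 (rank 2997), Fdps 0.288 (3115), Fdft1 0.241 (3920) and Dhcr7 0.103 (6700). In all, 4 of the 8 were above the 90th percentile of all tested genes. The first of the listed pathway genes was Acat2, the cytosolic thiolase at the entry of the pathway, with 0.651 and rank 14.

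Among 15 other enzymes of the pathway the median of this mean r was 0.375, and 7 were above the 90th percentile of all tested genes. Among these were Acat2, Msmo1 (0.596), Lss, the lanosterol synthase (0.511), Hsd17b7 (0.463), Sc5d (0.452) and Mvk, the mevalonate kinase (0.383). Below the 10th percentile were 2, Tm7sf2 (-0.473) and Ebp (-0.457), which both act on sterols after lanosterol. Of 7 SREBP2 targets outside synthesis, 3 were above the 90th percentile, among them Stard4, a sterol carrier (0.482), and Mylip, a ubiquitin ligase better known as a target of the sterol receptor LXR (0.397). The 13 sterol sensors and SREBP regulators had a median of 0.168, with Srebf2, which encodes SREBP2, at 0.272 and its retention factor Insig1 at 0.306, and none was above the 90th percentile. Of 12 genes of fatty acid synthesis, driven mainly by SREBP1, 3 were above it, for example Fasn with 0.589. The 10 genes of other isoprenoid branches had a median of -0.166, with 4 of them below the 10th percentile and 1 above the 90th, Pdss1, which makes the isoprenoid tail of ubiquinone (0.635, rank 32). The 15 genes of cholesterol transport, efflux and breakdown had a median of 0.057, and 3 were above the 90th percentile: Lrp1 (0.498), Nr1h2, the sterol receptor LXR beta (0.430), and Lcat, which esterifies cholesterol on lipoproteins (0.407).

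Markers of cells were read in the same way. The 12 markers of dopaminergic neurons had a median of 0.404, 10 of them were above 0 and 7 above the 90th percentile, among them Slc6a3, the dopamine transporter (0.525), Ddc (0.502) and Th, tyrosine hydroxylase (0.437), while Pitx3 had -0.407. In replicates 1, 2 and 3 the summed dopaminergic markers were 842, 803 and 753 CPM for Dot1l(+/+) and 734, 755 and 607 for Dot1l(fl/+). For Dot1l(fl/fl) they were 594, 595 and 625. Of the pools with low enzymes, only Dot1l(fl/+) replicate 3 had the lowest marker sum of its genotype. The part of these markers in the covariation of the enzymes was not tested. The 8 markers of neurons in general had a median of 0.155, with 5 above 0 and 2 above the 90th percentile, Stmn2 (0.485) and Nefl (0.415). Mature oligodendrocyte markers had a median of -0.0010, markers of their precursors -0.021, astrocyte markers -0.025, microglia markers -0.095 and endothelial markers -0.273. Of these lists, 1 precursor marker, Bmp4 (0.391), was above the 90th percentile. Below the 10th were 3 of the 8 microglia markers, Cx3cr1 (-0.529), Tmem119 (-0.521) and C1qb (-0.377), and 1 marker each of mature oligodendrocytes (Ermn, -0.444), their precursors (Tcf7l2, -0.423) and endothelial cells (Slco1c1, -0.392).

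**Figure D5:**
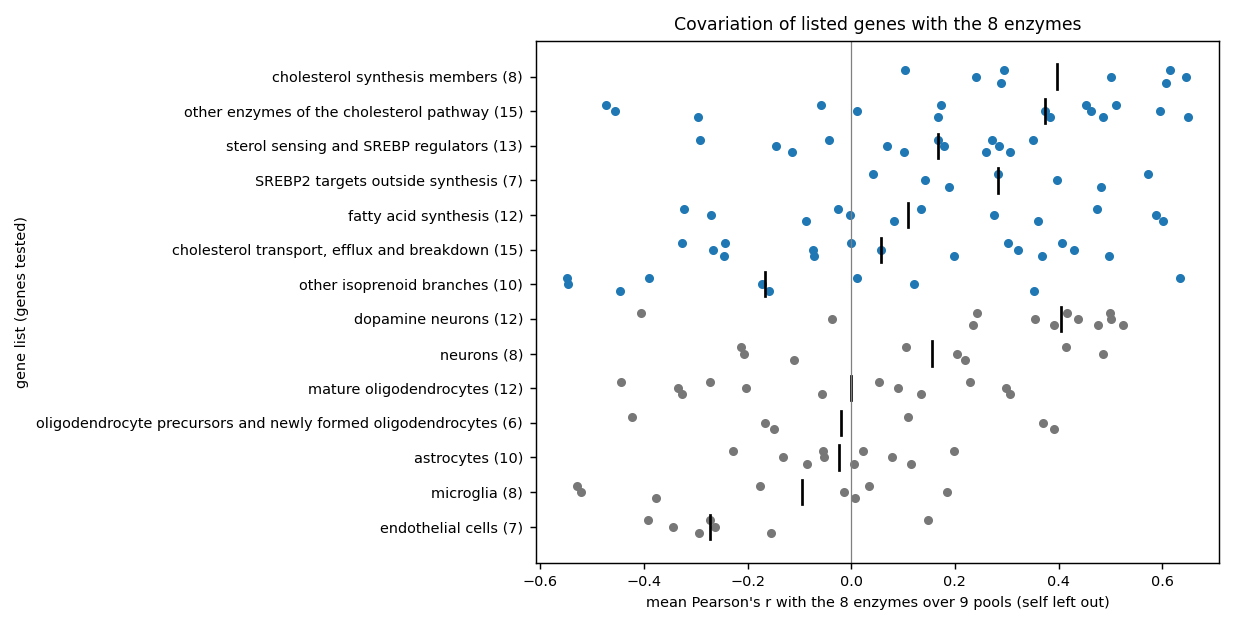
Mean Pearson's r of each listed gene with the 8 enzymes over 9 pools, genotype means removed (x axis), by list (y axis, number of genes tested in brackets). Points are genes, blue for pathway lists and grey for cell markers, and black bars are medians. The other enzymes of the pathway have a median of 0.375 and the markers of dopaminergic neurons 0.404, while the mature oligodendrocyte and astrocyte markers lie around 0.

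Around the enzymes, the 6 other pathway lists held 72 tested genes. None passed the adjusted p in any comparison, and the lowest adjusted p was 0.541 in Dot1l(fl/+) against Dot1l(+/+), 0.999 in Dot1l(fl/fl) against Dot1l(+/+) and 0.603 in Dot1l(fl/fl) against Dot1l(fl/+) (edgeR). At an unadjusted p below 0.05 there were 6 genes (8.33%), 3 genes (4.17%) and 5 genes (6.94%), beside 8.39%, 3.93% and 6.48% of all tested genes, so the shares were close to the background. In Dot1l(fl/+) against Dot1l(+/+), 2 of the 6 were higher and 4 lower, and in the comparisons of Dot1l(fl/fl) all 3 and all 5 were lower. Of all tested genes at this threshold, 390 were higher and 304 lower in Dot1l(fl/fl) against Dot1l(+/+), and 637 higher and 508 lower against Dot1l(fl/+). Both comparisons use the same Dot1l(fl/fl) pools, and Coq2 was counted in each. Their medians were 0.0051, -0.025 and -0.022.

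Of the 15 other enzymes, 1 had an unadjusted p below 0.05 in Dot1l(fl/+) against Dot1l(+/+), beside 8.39% of all tested genes. In the other comparisons there were 0. The enzyme was Sc5d, which introduces a ring double bond near the end of the pathway. Sc5d had 76.5, 71.3 and 75.4 CPM in Dot1l(+/+) and 69.8, 66.8 and 66.6 in Dot1l(fl/+). Its log2 fold change was -0.13 ± 0.05, or -0.074 once the length and GC content of genes were corrected for. Every Dot1l(fl/+) pool was below every control pool, as in 6.47% of all tested genes, and the Dot1l(fl/fl) pools lay between 70.3 and 73.3. Of the 13 regulators, 1 had an unadjusted p below 0.05 in each comparison, beside 8.39%, 3.93% and 6.48% of all tested genes. These were Insig1 for Dot1l(fl/+) against Dot1l(+/+), Srebf1 for Dot1l(fl/fl) against Dot1l(+/+) and Srebf2 for Dot1l(fl/fl) against Dot1l(fl/+). Insig1, which holds SCAP in the endoplasmic reticulum, had 88.0, 85.2 and 94.8 CPM in Dot1l(+/+) and 80.4, 84.2 and 66.2 in Dot1l(fl/+) (-0.22 ± 0.09), with no overlap, although the gap between the nearest pools was small, and the difference was -0.12 when replicate 3 of Dot1l(fl/+) was left out. Srebf1, which encodes SREBP1, had 108, 95.7 and 96.0 CPM in Dot1l(+/+) and 90.7, 79.8 and 94.9 in Dot1l(fl/fl) (-0.18 ± 0.08, and -0.10 when replicate 2 of Dot1l(fl/fl) was left out). Srebf2 had 200.1, 197 and 205 CPM in Dot1l(fl/+) and 190.2, 184 and 187 in the pools of Dot1l(fl/fl) (-0.10 ± 0.05), while its difference between Dot1l(fl/fl) and Dot1l(+/+) was -0.065.

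Outside synthesis, Stard4 was at -0.18 ± 0.08 in Dot1l(fl/fl) against Dot1l(+/+), and at -0.11 when replicate 3 of the controls was left out. It was the 1 of 7 SREBP2 targets with an unadjusted p below 0.05, beside 3.93% of all tested genes in this comparison. Among 10 tested genes of other isoprenoid branches, Coq2, which attaches the isoprenoid tail of ubiquinone, had the largest difference. Its pools stood at 37.7, 46.2 and 45.9 CPM in Dot1l(+/+), 41.6, 51.3 and 46.6 in Dot1l(fl/+), and 34.0, 35.9 and 40.4 in the pools of Dot1l(fl/fl), and it was at -0.34 ± 0.10 in Dot1l(fl/fl) against Dot1l(fl/+) and at -0.24 ± 0.10 against Dot1l(+/+) (adjusted p = 0.603 and 0.999, edgeR). Every Dot1l(fl/fl) pool was below every Dot1l(fl/+) pool, as in 5.14% of all tested genes. Dhdds, a subunit of the dolichol chain enzyme, was at -0.13 ± 0.05 in that comparison, and Fnta, a subunit of the farnesyltransferase, at 0.13 ± 0.05 in Dot1l(fl/+) against Dot1l(+/+).

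In Dot1l(fl/+) against Dot1l(+/+), 3 of the 15 genes of transport, efflux and breakdown had an unadjusted p below 0.05. So did 8.39% of all tested genes. Npc2, which carries cholesterol out of lysosomes, was higher (0.13 ± 0.06, with 65.4 to 65.9 CPM in the Dot1l(+/+) pools and 68.7 to 74.7 in the Dot1l(fl/+) pools). Soat1, which esterifies cholesterol, had -0.15 ± 0.06 (-0.088 with the length and GC correction), and Nr1h3, the sterol receptor LXR alpha, -0.35 ± 0.15 from levels of only 3.57 to 5.34 CPM. Cyp46a1, which hydroxylates cholesterol in neurons so that it can leave the brain, was at -0.16 ± 0.07 in Dot1l(fl/fl) against Dot1l(fl/+), where the 3 Dot1l(fl/+) pools ranged from 99.3 to 121 CPM, and at -0.096 when replicate 3 of Dot1l(fl/+) was left out. Of the 12 genes of fatty acid synthesis, Scd1, a desaturase, was at -0.13 ± 0.06 in the same comparison.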

How the data were processed

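Midbrain RNA was sequenced in 9 pools of 3 mice, 3 per genotype. The authors prepared directional libraries, processed the reads with bcl2fastq 2.17 and Trimmomatic 0.30 per the submitters' processing notes, mapped them to GRCm38.p4 and deposited unnormalized read counts for each Ensembl gene. The names of the aligner, counter and annotation are not given in the sources used here. The deposited comparisons, made by the authors with DESeq2 1.10.1, were not used. The series' design text describes E15.75, whereas the labels of every library give 180 days and dissected midbrain, and the labels were followed. The p-values measure the spread between these pools.

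Of 47729 identifiers, 47310 were in GENCODE M21 (GRCm38), which gave symbols, coordinates and exon lengths, and these held 99.9% of the counts. Genes were kept with filterByExpr (17671), scaled by TMM and tested with edgeR 4.0.16 (quasi-likelihood, R 4.3.3, limma 3.58.1) in 1 fit of the 9 libraries, with Benjamini-Hochberg adjustment over all genes and a threshold of 0.05. The biological coefficient of variation was 8.81%, and the chi-square of pools of 1 genotype was 4.34 to 16.3 per degree of freedom. Counts were also simulated for Dot1l(fl/+) against Dot1l(+/+) with 200 changed genes. The test recovered 1.5% at a log2 change of 0.3 (17490 genes), 55.5% at 0.5 and 92.0% at 1 (17487 genes each). Every simulated gene had the same dispersion and the pools were independent, so these shares are not the power for single enzymes. CPM are TMM-scaled. Correlations used log2 CPM (prior count 2) minus the genotype mean, with exact permutation within genotypes (Python 3.11.15, scipy 1.17.1, numpy 2.4.6, pandas 2.3.3, matplotlib 3.10.9). Copies were genes sharing at least 100 words of 50 bases with a member. Promoters were those of RefSeq (GRCm38.p6).

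The members and all gene lists were chosen with earlier results of these data known. All 8 members were named, with Dot1l, every gene of the 6 other pathway lists with an unadjusted p below 0.05 in a comparison, and the 5 genes of highest mean r; other genes were named after their values were seen. Alternatives were DESeq2 1.42.0, its size factors, no filter, at least 10 counts in every library, the 2 genotypes alone, the replicate number as a block, an offset for gene length and GC (a spline of 4 degrees of freedom per library) with and without the block, and each library left out. For the correlations they were Spearman's rho, a prior count of 0.5 and genotype means kept. The addition of pseudogene counts and the correlation without Idi1 and Fdps were chosen after seeing the data. Values of some genes of these lists are not reported here, although the counts and medians of the lists include them.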

Additional observations from a re-analysis of the deposited data

How the results depend on the processing

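Under all alternatives of each comparison, with DESeq2 and without single libraries included, 0 of the 8 enzymes had an adjusted p below 0.05, and the lowest adjusted p of a member was 0.380. The count at an unadjusted p below 0.05 was 0 to 1 without single libraries in Dot1l(fl/+) against Dot1l(+/+), and 0 to 1 in Dot1l(fl/fl) against Dot1l(fl/+). With the pseudogene counts it was 1 and 2, and the summed level of the enzymes was 613 CPM on average in place of 573. The median fold changes moved by less than the spread between pools (0.095 on the log2 scale). That spread comes from the same pools, so this is no independent measure of stability, and the signs of the medians turned. Without single libraries the medians were -0.062 to 0.018, -0.072 to 0.029 and -0.067 to 0.038 in the order of the report. The first was 0.011 and 0.014 with the length and GC offset without and with the block. Of 432 member fold changes under alternatives, 53 had another sign than in the report, all for values of at most 0.144 in size. In Dot1l(fl/+) against Dot1l(+/+), Fdps was at 0.0030 without a filter, 0.0015 with at least 10 counts in every library, 0.0039 with the replicate block, 0.00049 with the length and GC offset, 0.0050 with that offset and the block, and 0.063 with pseudogenes. Sqle was there at 0.0026, 0.0013, 0.023 (offset) and 0.024 (offset and block), and Hmgcs1 at 0.021 and 0.023 with the offset alone and with the block. In Dot1l(fl/fl) against Dot1l(+/+), Idi1 was at 0.065 with pseudogenes. In Dot1l(fl/fl) against Dot1l(fl/+), Hmgcs1 was at -0.051 and -0.053 and Mvd at 0.025 and 0.021 with the offset without and with the block, and Fdps at -0.049 with pseudogenes. Without single libraries, signs turned within these ranges: in Dot1l(fl/+) against Dot1l(+/+), Cyp51 -0.022 to 0.15, Fdps -0.083 to 0.10, Hmgcs1 -0.085 to 0.018, Mvd -0.17 to 0.075 and Sqle -0.036 to 0.045. In Dot1l(fl/fl) against Dot1l(+/+) the ranges were Cyp51 -0.070 to 0.094, Dhcr7 -0.025 to 0.081, Hmgcs1 -0.074 to 0.019, Idi1 -0.28 to 0.078, Mvd -0.22 to 0.029 and Sqle -0.081 to 0.0059. In Dot1l(fl/fl) against Dot1l(fl/+) they were Cyp51 -0.15 to 0.020, Dot1l -0.0059 to 0.23, Hmgcs1 -0.046 to 0.055, Mvd -0.14 to 0.022 and Sqle -0.088 to 0.0031. Where the sign held, single libraries moved Dhcr7 in Dot1l(fl/+) against Dot1l(+/+) between -0.12 and -0.013 and in Dot1l(fl/fl) against Dot1l(fl/+) between 0.056 and 0.13, and Fdft1 in Dot1l(fl/fl) against Dot1l(+/+) between -0.10 and -0.0060. The causes were not tested. Coq2 in Dot1l(fl/fl) against Dot1l(fl/+) had an adjusted p of 0.0042 without a filter (edgeR), a fit that called 164 genes, and 0.603 in the report.

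The pools may be matched by nest, as the study's methods describe, but no label ties the replicate numbers to nests. Same-numbered pools of different genotypes had correlations of 0.022 to 0.32 (median 0.14, all 9 above 0), other pools a median of -0.11, and 6 of 9 libraries correlated best with their own number. The 3 correlations between pools of replicate 3 were under the 0.1 asked of every pair, so the block was kept as an alternative. With the replicate block, 0 enzymes passed the adjusted p, 0, 0 and 1 had an unadjusted p below 0.05 in the order of the report, as without it (9.34%, 4.43% and 7.12% of all genes in these fits), and 0, 3 and 3 of all tested genes passed the adjusted p in place of 0. The median r between the enzymes was then 0.507. The permutations within genotypes take no account of matched pools. The median r of 0.438 was 0.350 to 0.566 without single libraries, 0.294 with genotype means kept and 0.400 by Spearman's rho. It was 0.417 with the length and GC offset, 0.418 without Idi1 and Fdps and 0.601 with pseudogenes. Its jackknife error was 0.217, so it is known only loosely. This error was computed from the values without single libraries, so it cannot judge how stable they are. The low counts of Idi1 and Fdps limit what could be seen for these genes.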
